A study of Mus musculus with 16 samples.

Results

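The genes described here are 10 immediate early genes: the AP-1 subunits Fos, Fosb, Jun, Junb and Jund, the stress-induced ATF family factor Atf3, the zinc finger factor Egr1, and Ier2, Dusp1 and Zfp36. They were chosen by symbol from a list written with earlier results of these data known. All 10 were listed in both tables of normalized counts, among 15080 genes in tumor and 13344 genes in stroma. All 10 also had a mean normalized count over 10 in each table, the minimum for the test, as did 14493 genes in tumor and 12202 in stroma.

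The libraries came from bone marrow of untreated C57BL/6J mice, aged 6 to 8 weeks when obtained, that were either wild type (WT) or homozygous for a null allele of the gene for interleukin-6 (IL6KO in the labels, IL-6 KO here). Every mouse, WT included, had received 500000 cells of a transplanted BCR-ABL+, Arf-/- B-cell acute lymphoblastic leukemia (B-ALL) by tail vein, marked with a retroviral mCherry, and its marrow was taken 8 days later. After lysis of red cells, live mCherry+ cells were sorted as tumor and live mCherry- cells as stroma, with 4 libraries for each of WT tumor, IL-6 KO tumor, WT stroma and IL-6 KO stroma. The IL-6 KO genotype was that of the host: the leukemic cells were the same transplanted line in both, a single leukemia, and stroma was every live marrow cell without mCherry, not a purified stromal type.

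Immediate early genes are transcribed within minutes of a growth factor, cytokine or stress signal, from promoters already bound by the serum response factor, its partner Elk factors and CREB, which MAP kinases activate without new protein synthesis. AP-1 is a dimer: Jun proteins pair with each other or with Fos proteins, whereas Fos proteins need a Jun partner, and the mix of subunits sets which sites are bound and how strongly. The messages are mostly short-lived, and the response is closed by its own products, among them Dusp1, a phosphatase of MAP kinases, and Zfp36, which binds AU-rich elements and speeds the decay of messages.

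The study's methods give 1 approximate depth for all samples and not that of each library, and the summed normalized counts ranged from 38817800 to 55593000 in tumor and from 8805690 to 44192000 in stroma. A single noncoding RNA gene, Rn7s1, held 3.40% to 4.11% of the sum in WT tumor, 5.40% to 6.24% in IL-6 KO tumor, 19.2% to 50.1% in WT stroma and 71.5% to 79.0% in IL-6 KO stroma 1 to 3, while in IL-6 KO stroma 4 it held 10.9% and CT010467.1 held 61.5%. B lineage markers fitted the tumor label: their summed normalized count was 144996 to 168088 in tumor, where 12 of 13 were listed, and 611 to 1722 in stroma, where 13 were listed. In stroma, 14 of 16 erythroid markers summed to 61231 to 254094 and 16 of 16 mature neutrophil markers to 10003 to 38678, but only 8 of 16 mesenchymal and endothelial markers were listed, without Cxcl12, Lepr, Cdh5 or Pdgfra. Il6 itself had no row in either table used here, so the host genotype could not be checked by it. The labels do not say that the 4 libraries of a group came from separate mice, so p-values measure the spread between these samples, which may be technical.

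The longest transcripts of the 10 genes ran from 1522 nt in Ier2 to 4484 nt in Egr1. Their GENCODE vM21 gene models on GRCm38 span chr12:85473890-85477273 for Fos and chr8:70698949-70700616 for Jund, for example. The models of Atf3, chr1:191170296-191218039, and Dusp1, chr17:26505590-26562128, are much longer. Jun, Junb, Jund and Ier2 each have 1 exon in their longest transcript, and the GC content of that transcript ran from 51.9% in Fos to 67.1% in Jund. Fos, Junb, Ier2, Dusp1 and Zfp36 varied together across the stroma libraries, as described below. The promoters of Fos, Dusp1 and Junb are shown from that set. Each is the 250 bases before the RefSeq start on GRCm38.p6, with the core of the cyclic AMP response element (TGACG, either strand) and any full element (TGACGTCA, which holds the core on both strands) in capitals. The Fos window is chr12:85473640-85473889 (+), the Dusp1 window chr17:26508473-26508722 (-) and the Junb window chr8:84978749-84978998 (-).
Fos: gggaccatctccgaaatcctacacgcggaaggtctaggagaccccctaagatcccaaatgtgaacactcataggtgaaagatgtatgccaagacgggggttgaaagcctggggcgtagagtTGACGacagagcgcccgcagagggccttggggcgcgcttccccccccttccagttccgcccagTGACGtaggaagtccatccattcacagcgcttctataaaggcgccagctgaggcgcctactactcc
Dusp1: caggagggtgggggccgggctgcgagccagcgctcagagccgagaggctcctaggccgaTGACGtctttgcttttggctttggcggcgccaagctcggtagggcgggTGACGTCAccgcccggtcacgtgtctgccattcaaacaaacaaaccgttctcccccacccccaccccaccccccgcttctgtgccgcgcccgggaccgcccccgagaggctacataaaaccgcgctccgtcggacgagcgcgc
Junb: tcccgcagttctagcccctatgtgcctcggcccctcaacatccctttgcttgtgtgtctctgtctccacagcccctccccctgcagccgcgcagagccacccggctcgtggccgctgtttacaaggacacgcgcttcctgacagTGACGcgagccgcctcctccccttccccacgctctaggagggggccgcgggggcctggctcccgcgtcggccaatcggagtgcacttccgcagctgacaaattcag

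TGACG occurred 2 times in the Fos window, 3 times in Dusp1 and 1 time each in Junb, Atf3 and Fosb, and not in Jun, Jund or Zfp36. Zfp36 was also in the set that varied together in stroma, so TGACG was not shared by all of that set. The Jund window, chr8:70697489-70697738 (+), does not adjoin the GENCODE start of Jund at 70698949, so its lack of TGACG does not describe the sequence at that start. The windows of Dusp1, Atf3 and Zfp36 lie inside their GENCODE gene models, which start farther upstream. Of 32851 RefSeq promoter windows of the same length, 17.8% held TGACG and 1.55% held the full TGACGTCA, which among these genes only Dusp1 had. The AP-1 site TGACTCA was in none of the 8 windows read and in 4.46% of all. Promoters of Egr1 and Ier2 were not read. These matches are letters in a window, not measured binding.

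The 3′ UTRs of the longest transcripts held the AU-rich heptamer TATTTAT, the core bound by Zfp36 family proteins, in 7 of the 10 genes. It was in 28.0% of 20551 mouse genes with a 3′ UTR, and in 27.3% of the 9361 genes whose 3′ UTR was as long as those of the 10. Zfp36 had 3 copies, as did Dusp1, and Fos had 2, whereas Egr1, Junb and Ier2 had none. Windows of 30 bases around the heptamer, in capitals, are shown for the Fos sites at chr12:85477103-85477132 (+) and chr12:85477127-85477156 (+), the Dusp1 site at chr17:26506158-26506187 (-), the Zfp36 site at chr7:28376925-28376954 (-), and the single sites of Jun at chr4:95049078-95049107 (-) and Jund at chr8:70700359-70700388 (+), all on GRCm38, since the contrast of Fos with Jun and Jund is the main pattern below.
Fos site 1: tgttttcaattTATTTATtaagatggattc
Fos site 2: ggattctcagaTATTTATatttttatttta
Dusp1 site 1: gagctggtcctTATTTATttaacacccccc
Zfp36 site 3: agattttatagTATTTATatatattgggtc
Jun site: ttgcttgtgcaTATTTATaatagcgttcgt
Jund site: cgattccgcccTATTTATgtttctactcgg

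The leukemic cells carried the Jun side of AP-1 and little of the Fos side. In sorted bulk samples such as these, fewer cells with a message and less of it per cell cannot be told apart. Levels between genes are given as normalized count per kb of the longest transcript, as means over the 4 libraries of a group. In WT tumor, Jund, the steady, least inducible Jun protein, was highest at 4552 per kb, followed by Jun at 2495, Ier2, a nuclear protein of the serum response, at 1828 and Junb at 768 per kb. Zfp36 stood at 398 and Egr1 at 287 per kb, and the ranges of these neighbours overlapped over the libraries. Dusp1 came next at 61.2 per kb. Atf3 at 10.5, Fos at 9.44 and Fosb at 9.40 per kb formed the bottom, with overlapping ranges. The first 4 places did not overlap with each other or with the places below them.

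IL-6 KO tumor had the same 7 genes in the same leading places: Jund at 5389, Jun at 2489, Ier2 at 2327, Junb at 829, Zfp36 at 368, Egr1 at 254 and Dusp1 at 77.6 per kb. Here the ranges of Jun and Ier2 overlapped, and Fosb at 16.4, Atf3 at 12.8 and Fos at 12.5 per kb again overlapped at the bottom.

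In stroma the order was different. Ier2 led in WT stroma at 1018 per kb, then Jund at 456, Junb at 303, Dusp1 at 222, Zfp36 at 143 and Fos at 104 per kb. From Jund to Fos each gene's range overlapped that of the next. Jun was lower, at 47.9 per kb, and Egr1 at 15.98, Fosb at 10.0 and Atf3 at 4.88 per kb were lowest and overlapped in turn. In IL-6 KO stroma Ier2 was again first at 1572 per kb, then Jund at 923, Junb at 546, Dusp1 at 290.0, Fos at 286, Zfp36 at 186, Jun at 74.2, Egr1 at 18.6, Fosb at 12.7 and Atf3 at 11.7 per kb. All neighbours in that order overlapped except Jun and Egr1.

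**Figure D1:**
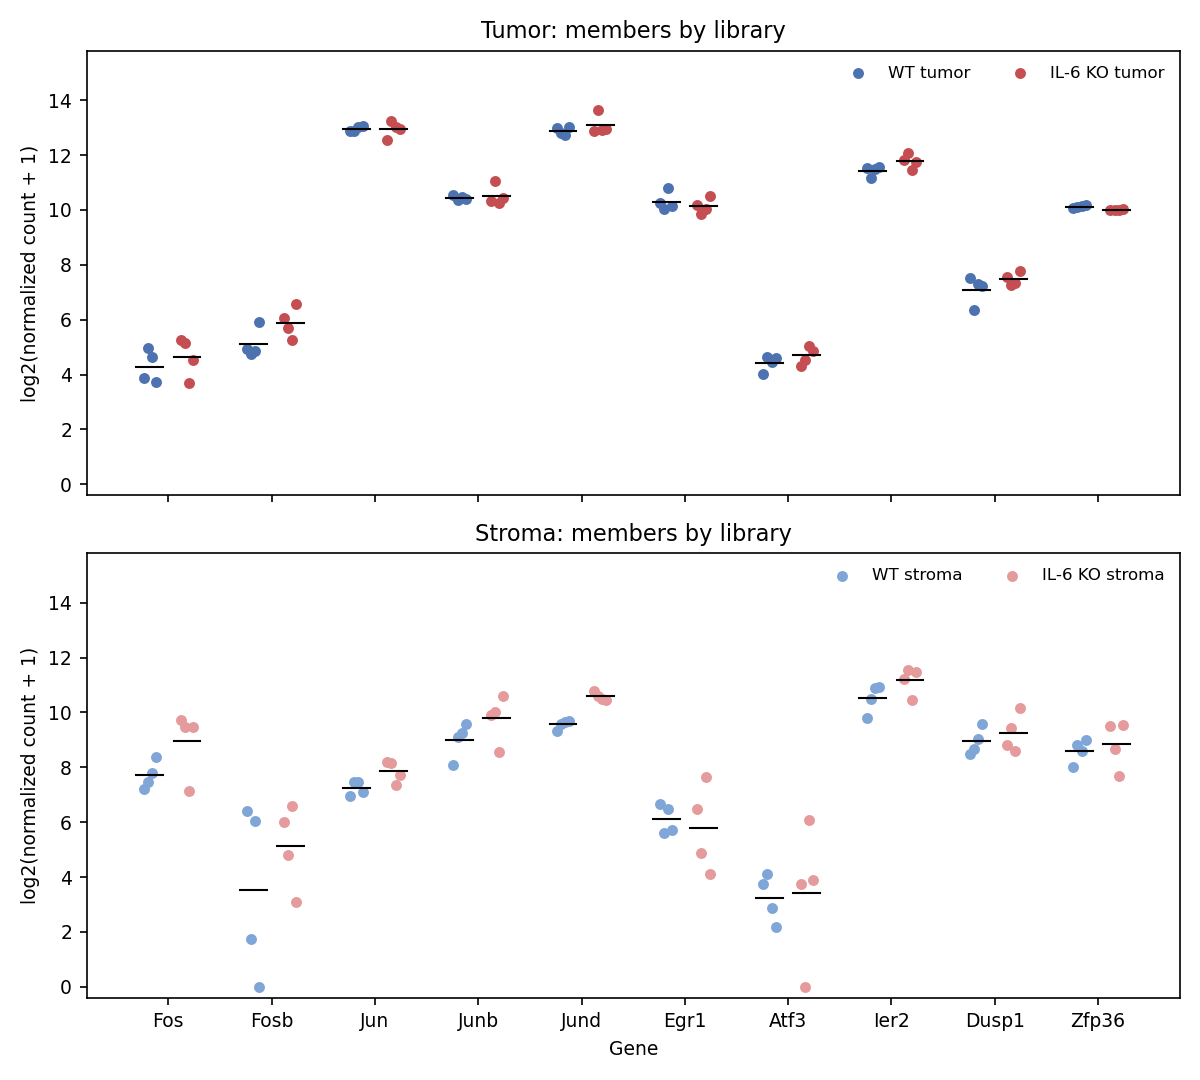
Normalized counts of the 10 genes in every library, on the log2(normalized count + 1) scale, with tumor above and stroma below. Points are libraries and bars are means of 4. Jun and Jund lie highest and Fos, Fosb and Atf3 lowest in tumor, stroma points scatter more, and in stroma the IL-6 KO points all lie above the WT points for Jund alone. Heights are not adjusted for transcript length, and the panels were normalized separately.

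The tumor and stroma tables were normalized separately, so a gene was placed between them only by its percentile of count per kb among the 11809 genes listed in both and ranked within each library, with no test. Fos stood at a median percentile of 8.46 in WT tumor (6.14 to 10.3) and 79.3 in WT stroma (73.3 to 88.1). In IL-6 KO mice it stood at 11.8 in tumor (7.74 to 14.1) and 95.1 in stroma (70.9 to 95.5). Fos in every stroma library ranked far above Fos in every tumor library.

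Dusp1 was placed in the same way, at a median percentile of 23.7 in WT tumor and 91.1 in WT stroma, and Zfp36 at 59.8 and 87.5. Junb also ranked higher in stroma, at 76.5 in WT tumor (75.1 to 78.1) and 94.8 in WT stroma (87.7 to 96.1). Its IL-6 KO medians were 75.0 in tumor and 96.9 in stroma. Jun took the opposite positions, at 93.1 in WT tumor (92.6 to 93.6) and 64.4 in WT stroma (58.5 to 67.3), and the IL-6 KO medians were 92.8 in tumor and 74.6 in stroma. Jund and Ier2 were near the top of both compartments: Jund at 96.3 in WT tumor and 96.6 in WT stroma, Ier2 at 91.0 and 98.6. Egr1, a target of Elk factors and SRF, sat in the middle or below, at 47.8 in WT tumor and 34.6 in WT stroma. Fosb and Atf3 had medians of 7.55 and 9.32 in WT tumor. In stroma their percentiles ran from 0.542 to 47.4 for Fosb and from 1.35 to 54.1 for Atf3, which at these low counts overlapped the tumor range.

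**Figure D2:**
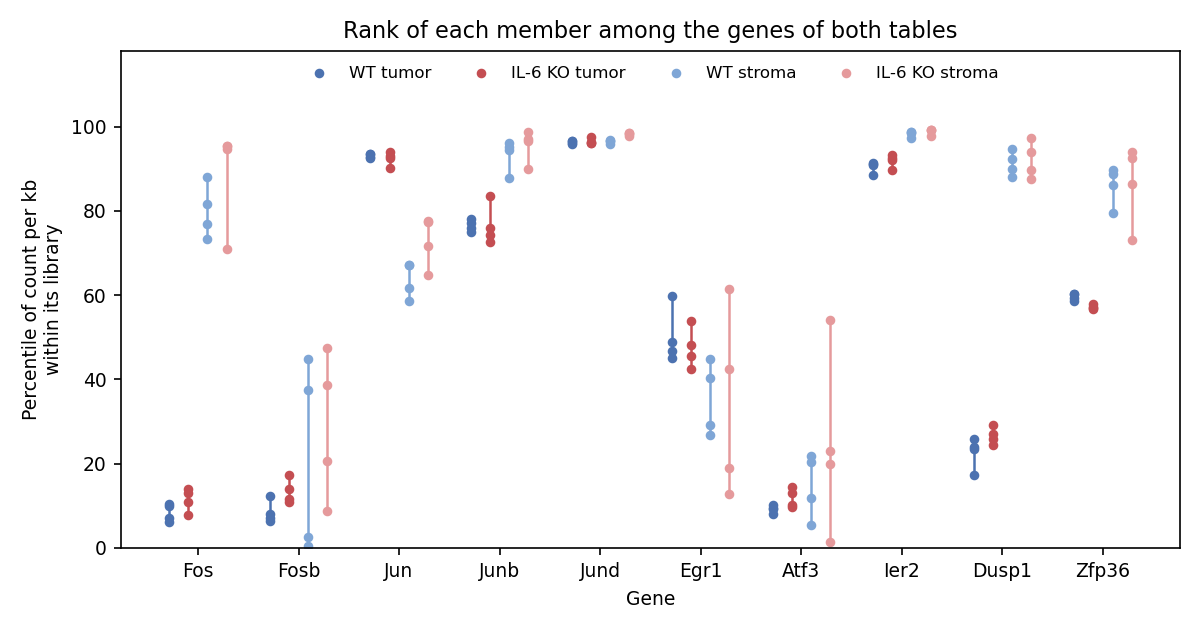
Percentile of each gene's normalized count per kb within its library, among 11809 genes listed in both tables, by group. Points are the 4 libraries of a group and lines join the lowest to the highest. Fos, Dusp1, Zfp36 and Junb rank higher in stroma, Jun ranks higher in tumor, and Jund and Ier2 rank near the top in both.

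A ratio within a library needs no scaling between tables. The summed level per kb of Jun, Junb and Jund over that of Fos and Fosb was 351 to 574 in WT tumor, with a median of 392, and 202 to 512 in IL-6 KO tumor, with a median of 313. In WT stroma it was 6.13 to 9.88, with a median of 6.67, and in IL-6 KO stroma 4.01 to 12.2, with a median of 4.95. Tumor and stroma did not overlap, while WT and IL-6 KO overlapped within each. Adding the other Fos family genes, Fosl1 and Fosl2, lowered the medians to 245 in WT tumor, 168 in IL-6 KO tumor, 4.44 in WT stroma and 3.87 in IL-6 KO stroma.

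The make-up of the Jun family differed too. Jun was 25.5% to 35.1% of the summed level per kb of the 3 Jun genes over all tumor libraries and 3.69% to 6.68% over all stroma libraries. Junb, which can antagonize Jun, was 8.54% to 10.5% in tumor and 18.7% to 48.6% in stroma. Jund was the largest share by median in every group, from 55.9% in WT stroma to 61.6% in IL-6 KO tumor.

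**Figure D3:**
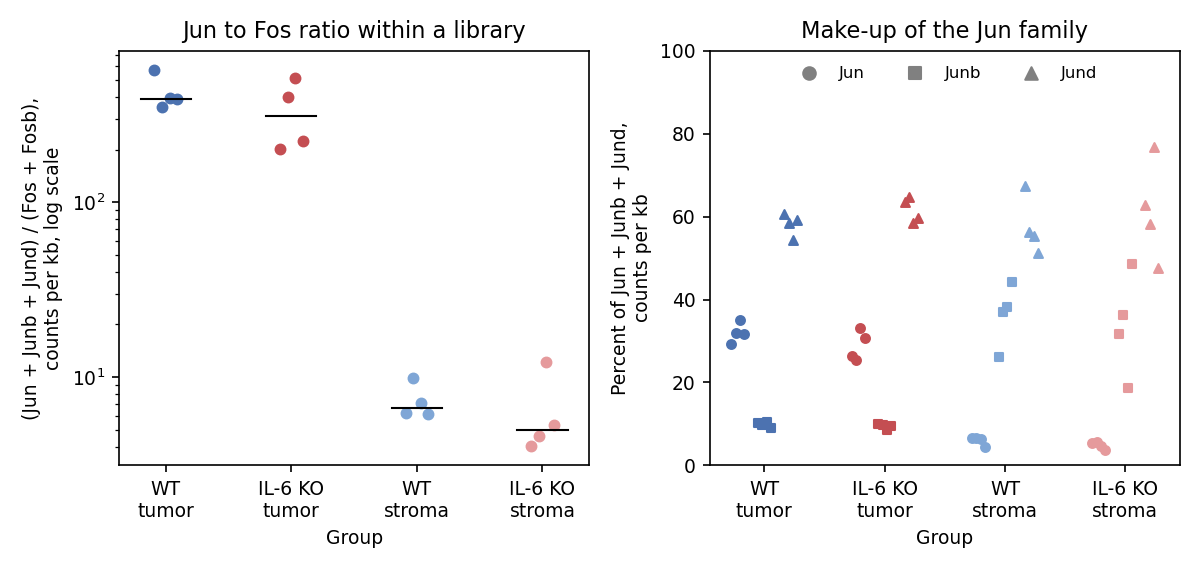
Left, ratio of the summed normalized count per kb of Jun, Junb and Jund to that of Fos and Fosb in each library, on a log axis, with a bar at the median. Right, percent of the summed level per kb held by Jun (circles), Junb (squares) and Jund (triangles). The 8 tumor libraries lie at 202 to 574 and the 8 stroma libraries at 4.01 to 12.2, and Junb takes a larger share in stroma.

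Whether the host's Il6 genotype altered these genes was tested separately in each compartment, with limma on log2(normalized count + 1) and Benjamini-Hochberg adjustment over all genes tested. In tumor, 0 of the 10 genes had an adjusted p under 0.05, against a background of 19.8% of all genes tested (10.6% higher and 9.16% lower in IL-6 KO). Without adjustment, 1 gene, Ier2, had p under 0.05, against 35.1% of all genes. The log2 fold change of IL-6 KO over WT was above 0 for 7 of the 10 genes, as it was for 49.3% of all genes, with a median of 0.24 beside -0.01 over all genes tested (0.01 once the dependence of each library on transcript GC content and length, its GC and length trend, was removed). In stroma, 0 of 10 passed, against 0.0082% of all genes, a single gene. Without adjustment 2 genes, Fos and Jund, had p under 0.05, against 9.15% of all genes. The log2 fold change was above 0 for 9 of 10, against 49.4% of all genes, with a median of 0.62 beside -0.01 (0.39 with that trend removed). Libraries within a genotype spread far more in stroma, where the median residual SD over all genes was 0.86 on the log2 scale, than in tumor, where it was 0.21.

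**Figure D4:**
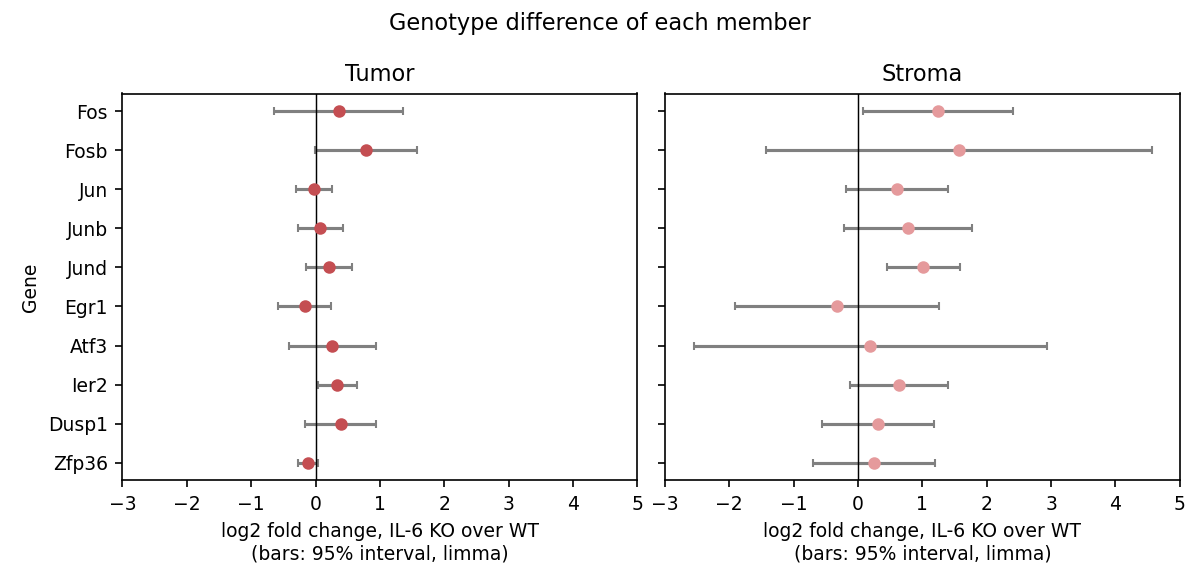
Log2 fold change of IL-6 KO over WT for each gene, on the log2(normalized count + 1) scale, in tumor (left) and stroma (right). Points are limma estimates from 4 libraries against 4 and bars are 95% intervals, not adjusted for the number of genes. In tumor only the Ier2 interval lies wholly above 0, in stroma those of Fos and Jund do, and no gene passed after adjustment.

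Among the Jun genes in tumor, Jun had normalized counts of 7557, 7540, 8286 and 8444 in WT tumor 1 to 4 and 5985, 9651, 8273 and 7836 in IL-6 KO tumor 1 to 4. The groups overlapped completely, since the IL-6 KO libraries held both the lowest and the highest value. Its log2 fold change was -0.02 (95% interval -0.31 to 0.26, limma adjusted p = 0.920), or 0.809-fold to 1.198-fold.

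Jund in tumor was 8206, 7209, 6716 and 8239 in WT and 7557, 12799, 7655 and 7943 in IL-6 KO, so that IL-6 KO tumor 2 stood alone above libraries that were otherwise alike. Its log2 fold change was 0.21 (95% interval -0.15 to 0.57, limma adjusted p = 0.381). Junb was also highest in IL-6 KO tumor 2, at 2113 against 1213 to 1501 in the other 7 libraries, and its log2 fold change was 0.08 (95% interval -0.28 to 0.43, limma adjusted p = 0.769). Removing, library by library, the dependence on GC content and on transcript length turned both values below 0, to -0.04 for Jund and -0.17 for Junb.

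On the Fos side of tumor, Fos was 13.5, 29.9, 23.9 and 12.2 in WT and 37.5, 34.2, 11.8 and 22.1 in IL-6 KO, low in all libraries and overlapping. Fosb, the Fos family member known for a long-lived splice form, was 29.2, 26.1, 28.1 and 58.8 in WT and 66.3, 50.4, 36.9 and 94.6 in IL-6 KO. The 3 lowest Fosb values were WT, and WT tumor 4 fell among the IL-6 KO libraries. The log2 fold changes were 0.36 (95% interval -0.64 to 1.36, limma adjusted p = 0.606) for Fos and 0.78 (95% interval -0.01 to 1.58, limma adjusted p = 0.148) for Fosb. Atf3, which forms repressive dimers on ATF sites, was 15.2 to 23.8 in WT and 19.1 to 32.2 in IL-6 KO, overlapping groups (log2 fold change 0.26, limma adjusted p = 0.578).

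Ier2 in tumor was 2918, 2316, 2869 and 3027 in WT and 3649, 4333, 2772 and 3414 in IL-6 KO. IL-6 KO tumor 3 fell among the WT libraries and the other 3 lay above all of them (log2 fold change 0.34, 95% interval 0.04 to 0.64, limma adjusted p = 0.106, exact two-sided permutation p = 0.114). Without IL-6 KO tumor 3 the change was 0.45 (limma adjusted p = 0.0365), and with the GC and length trend removed it was 0.07. Egr1 was 1220, 1040, 1777 and 1116 in WT and 1149, 911, 1041 and 1448 in IL-6 KO, overlapping groups whose log2 fold change was -0.17 (95% interval -0.58 to 0.24, limma adjusted p = 0.553). Dusp1 was 79.8 to 181 in WT and 154 to 217 in IL-6 KO, with overlapping groups (log2 fold change 0.39, limma adjusted p = 0.293).

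Zfp36 was the tightest of the 10 in tumor, at 1080.2, 1094, 1122 and 1146 in WT and 1023, 1010.04, 1024 and 1052 in IL-6 KO. Every IL-6 KO library was below every WT library, as in 12.0% of all genes tested in tumor. Its residual SD of 0.03 on the log2 scale was above that of 0.145% of genes, and the log2 fold change was small, at -0.11 (standard error 0.07, limma adjusted p = 0.273, exact two-sided permutation p = 0.0286, the smallest that 4 libraries against 4 allow). With the GC and length trend removed it was -0.23 (limma adjusted p = 0.0608).

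Markers of other cells also differed between the tumor groups. The summed normalized count of 16 mature neutrophil markers was 5117 to 5798 in WT tumor and 7927 to 19389 in IL-6 KO tumor, with 16 of 16 higher and 10 called, and 8 of 8 neutrophil precursor markers were called higher, their sum 612 to 857 in WT and 1501 to 3633 in IL-6 KO. None of the 16 mature neutrophil markers was at 0 in any tumor library: Ly6g ranged from 2.32 to 10.2 in WT and from 16.5 to 38.7 in IL-6 KO. Ngp and Ltf had the highest medians of the 16 in IL-6 KO tumor, 4616 and 3782. The sum therefore rests mostly on a few markers and is not a measure of mature neutrophils as such. By library the mature neutrophil sum was 18354, 19389, 7927 and 16823 in IL-6 KO tumor 1 to 4, lowest in library 3, which was also the lowest IL-6 KO library for Ier2, Fosb and Fos. The sums of other lists separated by genotype as well. Monocyte and macrophage markers summed to 2104 to 2558 in WT and 2642 to 3694 in IL-6 KO. B lineage markers summed to 144996 to 150242 and 157822 to 168088, and the 5 T and NK markers listed to 1661 to 1982 and 1195 to 1581. Single markers went both ways: 8 of 14 monocyte and macrophage markers were higher in IL-6 KO (4 called), and 8 of 12 B lineage markers (2 called higher and 2 lower). Of the 5 T and NK markers, 2 were higher and 0 were called. The share called over all genes tested in tumor was 19.8%. The part of these markers in the values of Ier2, Fosb, Fos and Zfp36 was not tested.

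In stroma, Jund was the gene whose groups separated, at 642, 772, 809 and 817 in WT and 1763, 1541, 1433 and 1419 in IL-6 KO. Every IL-6 KO library was above every WT library, as in 2.54% of all genes tested in stroma (3.25% lay wholly below), and the libraries of each group lay close together. On the log2 scale the fold change was 1.02 (standard error 0.27, 95% interval 0.44 to 1.59), with a limma adjusted p of 0.324 and an exact two-sided permutation p of 0.0286. Its residual SD of 0.15 on the log2 scale was above that of 0.205% of genes. Over leave-one-library-out fits the log2 fold change stayed between 0.94 and 1.06, and with the GC and length trend removed it was 0.56 (limma adjusted p = 0.566). Jund had the highest GC content of the 10 genes. Rn7s1 held 71.5% to 79.0% of the sum in IL-6 KO stroma 1 to 3 and 19.2% to 50.1% in WT stroma. In IL-6 KO stroma 4 it held 10.9% and CT010467.1 held 61.5%. Each IL-6 KO stroma library thus had a single RNA with a larger share than Rn7s1 had in any WT one. These shares split by genotype as Jund did, so the 2 cannot be told apart here, and their part in this difference was not tested.

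Jun in stroma was 122, 174, 178 and 137 in WT and 291, 281, 164 and 210.1 in IL-6 KO, so IL-6 KO stroma 3 fell among the WT libraries and the other 3 lay above them. The log2 fold change was 0.61 (95% interval -0.19 to 1.40, limma adjusted p = 0.627). Junb was 269.8, 549, 605 and 767 in WT and 964, 1037, 379 and 1569 in IL-6 KO. IL-6 KO stroma 3 again lay within the WT range and the other IL-6 KO libraries above it, and the log2 fold change was 0.78 (95% interval -0.21 to 1.76, limma adjusted p = 0.615).

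Fos in stroma was 147, 174, 223 and 329 in WT. In IL-6 KO it was 849.8, 714, 141 and 702, so that 3 IL-6 KO libraries were the highest of the 8 and IL-6 KO stroma 3 was the lowest. Its log2 fold change was 1.25 (standard error 0.54, 95% interval 0.08 to 2.41, limma adjusted p = 0.518, exact two-sided permutation p = 0.143), and without IL-6 KO stroma 3 it was 1.85 (limma adjusted p = 0.143). Fosb ranged from 0 to 83.4 in WT and from 7.50 to 94.9 in IL-6 KO. Atf3 ranged from 3.59 to 16.2 in WT and from 0 to 66.5 in IL-6 KO, its highest value in IL-6 KO stroma 3. Neither gene's groups separated, and their intervals, -1.43 to 4.57 for Fosb and -2.55 to 2.94 for Atf3, were too wide for a direction.

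Ier2 in stroma was 894, 1445, 1908 and 1949 in WT and 2391, 2975, 1391 and 2811 in IL-6 KO, with the same IL-6 KO library among the WT values. Its log2 fold change was 0.63 (95% interval -0.13 to 1.39, limma adjusted p = 0.602). Zfp36 was 257, 446, 385 and 505 in WT and 733, 401, 206 and 738 in IL-6 KO, and Dusp1 356, 408, 526 and 762 in WT and 448, 691, 389 and 1155 in IL-6 KO. Both overlapped widely, with log2 fold changes of 0.25 (limma adjusted p = 0.893) and 0.31 (limma adjusted p = 0.841). Egr1 was 99.5, 47.6, 88.0 and 51.6 in WT and 89.2, 28.2, 200.3 and 16.5 in IL-6 KO. IL-6 KO held both its highest value, in library 3, and its lowest, in library 4.

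Across the 8 stroma libraries the genes fell into sets that varied together. Over the 10 pairs among Fos, Junb, Ier2, Dusp1 and Zfp36, Pearson's r of the log2 values ran from 0.62 to 0.95, with a median of 0.82, and from 0.60 to 0.94 after each genotype's mean was subtracted. The median over all 45 pairs of the 10 genes was 0.27. The closest pair was Junb and Ier2 at 0.95, then Fos and Junb at 0.90. Egr1 went the other way, with r of -0.83 to Dusp1 and -0.78 to Junb. In tumor the same 10 pairs had a median r of -0.05, and the closest pair of all was Junb and Jund at 0.90, where IL-6 KO tumor 2 was highest for both (Spearman's rho 0.45). These are descriptions over 8 libraries that share depth and scaling, and the 5 genes were picked out after their values were seen.

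The summed mature neutrophil markers moved with the first set in stroma. They summed to normalized counts of 10003, 14546, 16773 and 18746 in WT stroma 1 to 4 and 38678, 37195, 10834 and 35558 in IL-6 KO stroma 1 to 4. Fos was high in the same 3 IL-6 KO libraries, and for both IL-6 KO stroma 3 lay with the lowest WT library. Over the 8 libraries, r between the log2 of this sum and the log2 value was 0.99 for Fos, 0.93 for Junb, 0.93 for Ier2, 0.86 for Jun, 0.82 for Zfp36, 0.70 for Jund and 0.65 for Dusp1. With the genotype means subtracted it was 0.98 for Fos and 0.91 for Junb. It was -0.14 for Fosb, -0.52 for Atf3 and -0.66 for Egr1. Of the 16 neutrophil markers 14 were higher in IL-6 KO stroma and 0 were called by limma (4 with an unadjusted p under 0.05). None of the 16 was at 0 in any stroma library. Ltf weighed most in the sum, with the highest median of the 16 in stroma, 4384 in WT and 15392.5 in IL-6 KO. Ngp had medians of 1878 and 4402. Medians were close between WT and IL-6 KO for Csf3r (759 and 783), S100a8 (903 and 868) and Il1b (152 and 148). The sum therefore does not stand for each marker of the list alike, and it is not a measure of mature neutrophils as such. Erythroid markers summed to 65092, 154164, 254094 and 61231 in IL-6 KO stroma 1 to 4, highest of all 8 libraries in library 3, and to 141317 to 202569 in WT, with 2 of 14 higher in IL-6 KO. The 4 megakaryocyte markers listed summed to 49.6 to 212 in WT and 267 to 855 in IL-6 KO, which like Jund did not overlap. IL-6 KO stroma 3, with a neutrophil sum of 10834, had a Jund count of 1433, above every WT library. That is a single library. Over the 8 libraries r of Jund with the neutrophil sum was 0.70, or 0.60 with the genotype means subtracted. The part of the neutrophil, erythroid and megakaryocyte markers in the genotype values of Fos, Junb, Jun, Jund, Ier2 and Zfp36 was not tested.

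**Figure D5:**
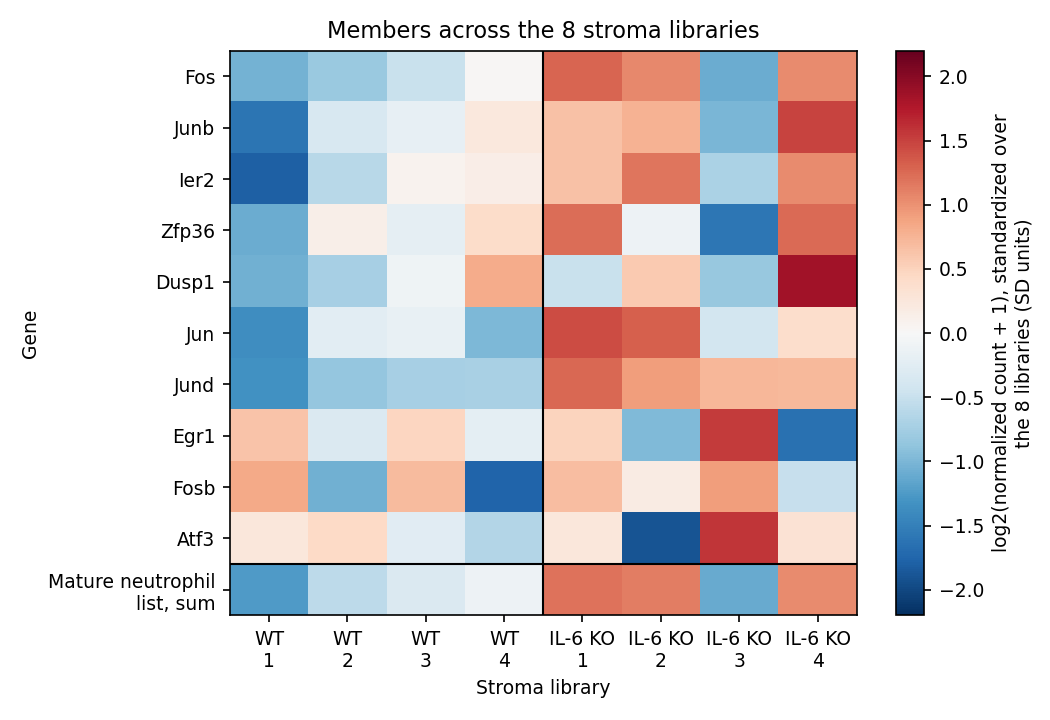
Log2(normalized count + 1) of the 10 genes in each stroma library, standardized over the 8 libraries (SD units, red high and blue low), with the summed mature neutrophil markers as the last row. Fos, Junb and Ier2 share the column pattern of that row, and Jun and Zfp36 follow it less closely. IL-6 KO stroma 3 is low in that row and high for Egr1, Fosb and Atf3, and Jund is high in all 4 IL-6 KO libraries.

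The summed normalized count of the heat shock genes, stress-induced chaperones, was 4461 to 6721 in WT stroma and 4112 to 7116 in IL-6 KO stroma, overlapping. Of 10 tested in stroma 0 were called by limma and 0 had an unadjusted p under 0.05, and of 9 in tumor 1 was called, beside the background of 19.8%: Hsp90ab1 (log2 fold change 0.22, limma adjusted p = 0.0334). No heat shock gene was called when WT tumor 2, 3 or 4 or IL-6 KO tumor 1, 3 or 4 was left out.

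Outside the 10 genes, those whose profile was most like the mean of the 10 standardized profiles were named by Pearson's r over the 8 libraries of a table. In stroma, over 8069 genes, these included Lrsam1 with r of 0.979 and Tyrobp, an adaptor of myeloid receptors, with 0.975. In tumor, over 11231 genes, they were Zmiz1 at 0.967, Atp5j2 at 0.961 and Zfp704 at 0.960. With so many genes and 8 libraries, values of this size are given as a ranking only.

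In the wider AP-1 and ATF family several genes differed between the tumor groups. Of 15 AP-1 relatives tested, 7 rose and 1 fell in IL-6 KO tumor, beside the background of 19.8% of genes called, and the median log2 fold change was 0.37. Atf5 rose by 0.61 on the log2 scale (limma adjusted p = 0.00360), from 565 ± 49.4 to 864 ± 48.6 (SD, n = 4). Atf4, the integrated stress response factor, rose by 0.29 (limma adjusted p = 0.0127) and Mafk, a small Maf partner of NF-E2, by 0.51 (limma adjusted p = 0.00671). Fosl2, a Fos family subunit, rose from 82.3 ± 21.5 to 166 ± 50.1 (SD, n = 4; log2 fold change 0.99, limma adjusted p = 0.0250). The neutrophil markers given above were higher in the same libraries, and their part in these 7 genes was not tested. With the GC and length trend removed 3 of the 15 were called, and leaving out 1 library at a time gave 4 to 7, with 4 or 5 called without WT tumor 1, 2 or 4 or IL-6 KO tumor 1 or 4. In stroma 0 of 14 were called by limma (2 with an unadjusted p under 0.05), among them Jdp2 (log2 fold change 0.91, limma adjusted p = 0.519).

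Of 33 other immediate early genes tested in tumor, 2 rose and 1 fell, beside the same background of 19.8%, and the median log2 fold change was 0.04. Rhob, a small GTPase, rose by 0.81 (limma adjusted p = 0.0180) and the kinase gene Pim1, a known STAT target, by 0.53 (limma adjusted p = 0.0252), while Sgk1, a glucocorticoid-inducible kinase, fell by 0.53 on the log2 scale (limma adjusted p = 0.00368). Leaving out single libraries gave 1 to 9 calls: 9 when IL-6 KO tumor 2 was omitted, and 1 when IL-6 KO tumor 1 or 4 was. In stroma 0 of 33 were called by limma, 7 had an unadjusted p under 0.05 and 22 were higher in IL-6 KO, with a median log2 fold change of 0.50. The smallest p was that of Mcl1, an anti-apoptotic gene, at 1105 ± 292 in WT and 2847 ± 1118 in IL-6 KO (SD, n = 4; log2 fold change 1.31, limma adjusted p = 0.324). For Socs3, the feedback inhibitor of IL-6 signaling, the stroma log2 fold change was 2.24 (limma adjusted p = 0.432).

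Among kinases and factors that act on these promoters, 2 rose and 2 fell of 19 tested in tumor. That is near the background of 19.8% of all genes called (10.6% higher and 9.16% lower). Creb1, which encodes the factor that binds cyclic AMP response elements, fell by 0.33 on the log2 scale, from 3377 ± 258 to 2675 ± 85.7 (SD, n = 4; limma adjusted p = 0.0124). Map2k2, which encodes MEK2, rose by 0.41 (limma adjusted p = 0.0102), as did Mapkapk2, a p38 target kinase that stabilizes AU-rich messages, by 0.41 (limma adjusted p = 0.0139). With the GC and length trend removed 1 of the 19 was called. Of the 12 MAP kinase phosphatases and feedback inhibitors beside Dusp1, 1 was called, beside the background of 19.8%: the nuclear phosphatase gene Dusp4 (log2 fold change 0.41, limma adjusted p = 0.0256), and leaving out single libraries gave 0 to 4 calls: 4 when IL-6 KO tumor 2 was omitted, and 0 when WT tumor 3 or IL-6 KO tumor 1, 3 or 4 was. In stroma, 0 of 19 kinases and factors and 0 of 10 phosphatases were called by limma, with 2 and 1 at an unadjusted p under 0.05.

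Some counts of these genes may include reads of overlapping genes. Jun shares 232 bases with the antisense gene Junos, Jund 543 with Gm11175 and Junb 176 with Prdx2, and whether the counting used strand is not given in the sources used here. Junos had mean normalized counts of 26.0 in WT tumor and 26.4 in IL-6 KO tumor, far below those of Jun. Gm11175 had 36.8 in WT stroma and 18.7 in IL-6 KO stroma, the opposite order to Jund. Counts of Prdx2 are not given here, and the part of its reads in the Junb values was not tested.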

How the data were processed

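The authors quantified 75 nt single-end reads with Salmon 1.3.0 on mm10, with GC and sequence bias corrections, and normalized the estimated counts with DESeq2 1.28.1. They deposited 1 table of normalized counts per compartment, a scaled signal and not whole reads, and 1 table of DESeq2 results (fold changes and p-values) that was not used here. The sources give a minimum and an approximate read number per sample, not one for each library.

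Here log2(normalized count + 1) was tested per table with limma 3.58.1 in R 4.3.3 (variances following the mean, genotype only, two-sided) on genes with a mean over 10, with Benjamini-Hochberg adjustment over all genes tested and a threshold of 0.05. GENCODE vM21 (GRCm38) held 13338 of the 13344 stroma identifiers and 15069 of the 15080 in tumor. RefSeq promoters matched 8 of the 10 genes. Shared sequence was found with BLAST 2.17.0 (97% identity over 150 nt). The other steps ran in Python 3.11.15 (SciPy 1.17.1, pandas 2.3.3).

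The 10 genes and all lists were chosen with earlier results of these data known. The text names the 10 genes, the 3 genes most like them per table, and up to 4 genes per list in tumor and 2 in stroma by smallest p; Junos, Gm11175 and Prdx2, Rn7s1 and CT010467.1, Fosl1, and the marker genes fall outside that rule. Results for 2 of the genes that the rule gives are not reported here. Alternatives were other pseudocounts, filters, scalings, array weights, removal of each library's GC and length trend (loess, span 0.3), a replicate block and leaving out each library. Scripts were tested on simulated data.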

Additional observations from a re-analysis of the deposited data

Results flagged for a closer look

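Of 40 sets of 4 libraries (10 genes in 4 groups), 2 had a library standing apart from the other 3 by Dixon's 95% criterion on the gap to the nearest library over the group's range. Chance gives about 1 in 20 such sets. Fosb in WT tumor 4 had a normalized count of 58.8, above 26.1 to 29.2 in the other WT tumor libraries (gap 0.903 of the range). Jund in IL-6 KO tumor 2 had a normalized count of 12799, above 7557 to 7943 in the other IL-6 KO tumor libraries (gap 0.926 of the range), and Junb was highest in that library as well, at 2113.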

How the results depend on the processing

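None of the 10 genes passed limma's adjusted p of 0.05 under any alternative with all libraries; with a library left out, 0 to 1 passed in tumor (Ier2 alone, without IL-6 KO tumor 3) and 0 in stroma. Over all alternatives the lowest adjusted p of any of them was 0.0365 in tumor and 0.113 in stroma. The genes called in tumor numbered 2870, and 1668 with a replicate block and the GC and length trend removed, 2230 with the block alone, and 1569 to 3327 with a library left out (1791 and 1722 without WT tumor 2 or 3, 1617 and 1569 without IL-6 KO tumor 1 or 4, respectively). In stroma 1 gene was called, 4 with array weights, and 1 to 3 with a library left out (2 without IL-6 KO stroma 1, 3 without WT stroma 3 or IL-6 KO stroma 3 or 4). WT and IL-6 KO libraries of the same number did not deviate together (correlations of -0.02 to 0.00 in tumor and -0.03 to 0.13 in stroma), so the number was not taken to pair them; same-numbered tumor and stroma libraries were not compared in this way, and with the block 0 of the 10 genes were called in either table. Directions that turned were Junb in tumor (-0.0399 with array weights, -0.17 with the GC and length trend removed, with or without the block, and -0.10 to 0.17 with a library left out), Jund in tumor (-0.0392 with that trend removed, with or without the block), Jun in tumor (-0.12 to 0.11 with a library left out), Atf3 in stroma (-1.16 with array weights, -0.16 to 1.33 with a library left out) and Egr1 in stroma (-0.95 to 0.23 with a library left out); the cause was not tested. With lengths from the union of exons, 6 of 10 genes kept their place in the order per kb in IL-6 KO stroma. Calls in the gene lists were recomputed under alternatives chosen after seeing the data: AP-1 relatives in tumor numbered 8 called, 5 with the replicate block and 2 with the block and the GC and length trend removed, and Hsph1 in tumor turned to 0.0149 with that trend removed, with or without the block. Fos, Fosb and Atf3 in tumor have counts too low for a firm statement on genotype, and spread limits stroma.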
